A study of Mus musculus with 4 samples.

Results

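The genes that mark a neuron as GABAergic or glutamatergic were followed through the mouse hypothalamus by single-nucleus RNA sequencing. They are 6 of the 32285 genes counted, chosen by name and not by their values, namely Gad1 and Gad2, which encode the glutamate decarboxylases that make GABA, Slc32a1, which encodes the transporter that fills vesicles with GABA or glycine, and Slc17a6, Slc17a7 and Slc17a8, which encode the vesicular glutamate transporters VGLUT2, VGLUT1 and VGLUT3. All mice were adult males on the C57/BL6NCr background, either wild-type (WT) or heterozygous for a mutant thyroid hormone receptor α1 with lowered affinity for its ligand (TRα1+m). The mutation is carried in every cell from the germ line, and it does not remove the Thra transcript, so the level of Thra cannot check a library's genotype. Each library was made from the nuclei of 3 mice of the same genotype, and each of 2 experimental repeats gave a WT and a TRα1+m library, 4 libraries in all.

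The annotation deposited with the counts places 56386 nuclei into 7 main clusters and their sub-clusters, and all levels below were taken over those cell groups. WT repeats 1 and 2 held 14652 and 13323 of these nuclei, and TRα1+m repeats 1 and 2 held 16435 and 11976. The libraries held between 47260127 and 59112785 UMIs (unique molecular identifiers, each standing for a captured RNA molecule) in these nuclei. Between 169 and 219 kept barcodes of a library (1.33 to 1.41%) also occurred among all barcodes, kept or not, of another library. The cluster Neurons_2 drew 852 of its 864 nuclei from TRα1+m repeat 2 and was left out of the comparisons. The smallest p that an exact permutation test of 2 against 2 libraries can reach is 0.333, and every p-value measures the spread between these pools, not between single mice.

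GABA is made from glutamate by either decarboxylase and is loaded into synaptic vesicles by a transporter that all GABAergic and glycinergic neurons share. Glutamate is a metabolite of every cell, so a neuron is recognised as glutamatergic by a vesicular transporter and not by an enzyme. In the adult hypothalamus VGLUT2 is the usual transporter, VGLUT1 is typical of cortex and VGLUT3 occurs in scattered neurons that often release another transmitter as well.

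On GRCm38, Gad1 (ENSMUSG00000070880) lies on the plus strand at chr2:70553072-70602014, and Gad2 (ENSMUSG00000026787) on the same strand at chr2:22622205-22693874. Slc32a1 (ENSMUSG00000037771) spans 4982 bases of the plus strand at chr2:158610767-158615748, of which 56.1% are exonic, against 15.6% in Gad1, 8.20% in Gad2 and 11% in Slc17a6 (ENSMUSG00000030500, plus strand, chr7:51622006-51671119). Slc17a7 (ENSMUSG00000070570, plus strand) lies at chr7:45163949-45176142, and Slc17a8 (ENSMUSG00000019935, minus strand) at chr10:89574020-89621253. Gad1 overlaps the antisense gene Gad1os and Slc32a1 the antisense gene Gm14205, so reads of these pairs can be told apart only by strand. Introns were counted too, so a UMI may come from unspliced RNA.

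The first question was which annotated groups carried these genes, given as UMIs per nucleus and on the counts-per-million (CPM) scale, relative to all UMIs of the group in that library. The clusters were built from expression that includes these genes, so the levels are a description with no test, and the standard deviation (SD) over n = 4 libraries mixes repeats and genotypes. In bulk sums of nuclei, fewer positive nuclei and less RNA in each cannot be told apart.

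Gad2 was highest in the group annotated GABA Neurons. There it reached 1.18 and 1.5 UMIs per nucleus in WT repeats 1 and 2 and 0.990 and 1.33 in the TRα1+m repeats. Oligodendrocytes, which are not expected to make GABA, held 0.152 and 0.183 in WT and 0.152 and 0.144 in TRα1+m. Every library of GABA Neurons was thus above every oligodendrocyte library, on average 7.93-fold within a library (6.51 to 9.24). In CPM the order began with GABA Neurons (266 ± 9.95 CPM, SD, n = 4), followed by Somatostatin+ Neurons (219 ± 12.2), AVasopressin Neurons (200.2 ± 16.8) and NPY/AgRP Neurons (196 ± 17.6). MCH Neurons and POMC/CART Neurons were intermediate at 133 and 129 CPM. The 6 remaining neuronal groups, including all 3 glutamatergic groups, lay between 31.9 and 49.3 CPM. Of the 11 steps in this order, 5 exceeded the larger SD of their pair, including those from GABA to Somatostatin+ Neurons and from NPY/AgRP to MCH Neurons, while the steps between AVasopressin and NPY/AgRP Neurons and among the glutamatergic groups did not.

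Gad1 had another order. It was highest in the group annotated Orexin+ Neurons (187 ± 54.3 CPM) and in AVasopressin Neurons (159.8 ± 24.6), above GABA Neurons (111 ± 24.6) and Somatostatin+ Neurons (104 ± 26.6). Only 2 of its 11 steps exceeded the larger SD, from AVasopressin to GABA Neurons and from POMC/CART Neurons (65.5 CPM) to Glutamatergic Neurons_1 (31.6 CPM). In GABA Neurons it measured 0.389 and 0.736 UMIs per nucleus in WT and 0.345 and 0.658 in TRα1+m, against 0.104, 0.158, 0.101 and 0.152 in oligodendrocytes of the same libraries. The 2 libraries of repeat 2 were the higher ones in both cell groups.

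Slc32a1 shared the leading groups of Gad2. GABA Neurons stood first at 149 CPM, yet with an SD of 89.8, since the libraries read 71.4 and 230.5 CPM in WT and 71.1 and 223 CPM in TRα1+m. The gap between repeats was wider than any step between neighbouring groups, and only 1 of 11 steps, from Glutamatergic Neurons_1 (20.0 CPM) to Glutamatergic Neurons_2 (15.7 CPM), exceeded the larger SD. The lowest group was the one annotated Orexin+, at 9.29 CPM.

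Slc17a6 marked a separate set of groups. CART Neurons_1 led with 370.4 ± 104 CPM, ahead of Glutamatergic Neurons_1, 3 and 2 at 250.0 ± 67.2, 242 ± 65.3 and 235 ± 46.2 CPM. POMC/CART (123 ± 13.8), MCH (115 ± 29.1) and Oxytocin+, AVP Neurons (112 ± 16.7) formed a middle tier. GABA Neurons held 51.1 CPM and Somatostatin+ Neurons, the lowest group, 18.4 CPM. The steps from CART Neurons_1 to Glutamatergic Neurons_1, from Glutamatergic Neurons_2 to POMC/CART Neurons, from Oxytocin+, AVP to GABA Neurons and from Orexin+ to Somatostatin+ Neurons exceeded the larger SD, whereas those among the 3 glutamatergic groups did not.

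Set against oligodendrocytes of the same library, the 4 abundant genes separated several groups by transmitter. These folds are of UMIs per nucleus and are not corrected for depth, and oligodendrocyte nuclei were shallow (median 1493 to 1811.5 UMIs). In CPM oligodendrocytes held 73.8 for Gad1, 91.3 for Gad2, 39.3 for Slc32a1 and 70.0 for Slc17a6. CART Neurons_1 held 16.0 times as much Slc17a6 per nucleus as oligodendrocytes but only 1.10 times as much Gad1, 0.902 times Gad2 and 1.00 times Slc32a1. Oxytocin+, AVP Neurons showed 5.91 times Slc17a6 and near-oligodendrocyte Gad1 (1.04 times) and Gad2 (1.41 times). AVasopressin Neurons showed the reverse, with 4.40 times Gad1, 4.48 times Gad2 and 1.18 times Slc17a6. The 2 groups named for vasopressin therefore had opposite profiles for these genes. Both held Avp transcript, at 3042 CPM in AVasopressin and 21430 CPM in Oxytocin+, AVP Neurons. The peptide was not measured, and Avp levels in other groups are not reported here.

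POMC/CART Neurons were above oligodendrocytes per nucleus for all 4 genes, but in CPM not for Gad1. This group, whose Pomc level of 2277 CPM fits its name, held 2.24 times the oligodendrocyte Gad1, 3.64 times Gad2, 3.03 times Slc32a1 and 4.84 times Slc17a6 per nucleus, at a median depth of 3548 to 4979 UMIs. In CPM its Gad1 (65.5) was under the oligodendrocyte mean and its Slc32a1 (41.2) close to it, while Gad2 (129) and Slc17a6 (123) stayed above. MCH Neurons showed a similar mix (2.05, 2.75, 2.45 and 3.21 times per nucleus), of which less was left in CPM (84.6 for Gad1, 133 for Gad2, 49.5 for Slc32a1 and 115 for Slc17a6). All 5 endothelial and mural marker genes examined were also present in MCH Neurons, at a sum of 588 to 2687 CPM per library against 3.25 to 118.6 CPM in the other neuronal groups for which that list was summed. The 5 astrocyte marker genes summed to 798 to 1364 CPM per library in MCH Neurons. In the other Neurons_1 sub-clusters for which they were summed they gave 94.8 to 468 CPM. The part of such vascular or glial RNA in the MCH values was not tested. A group average does not show whether single nuclei carried both transmitters.

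**Figure D1:**
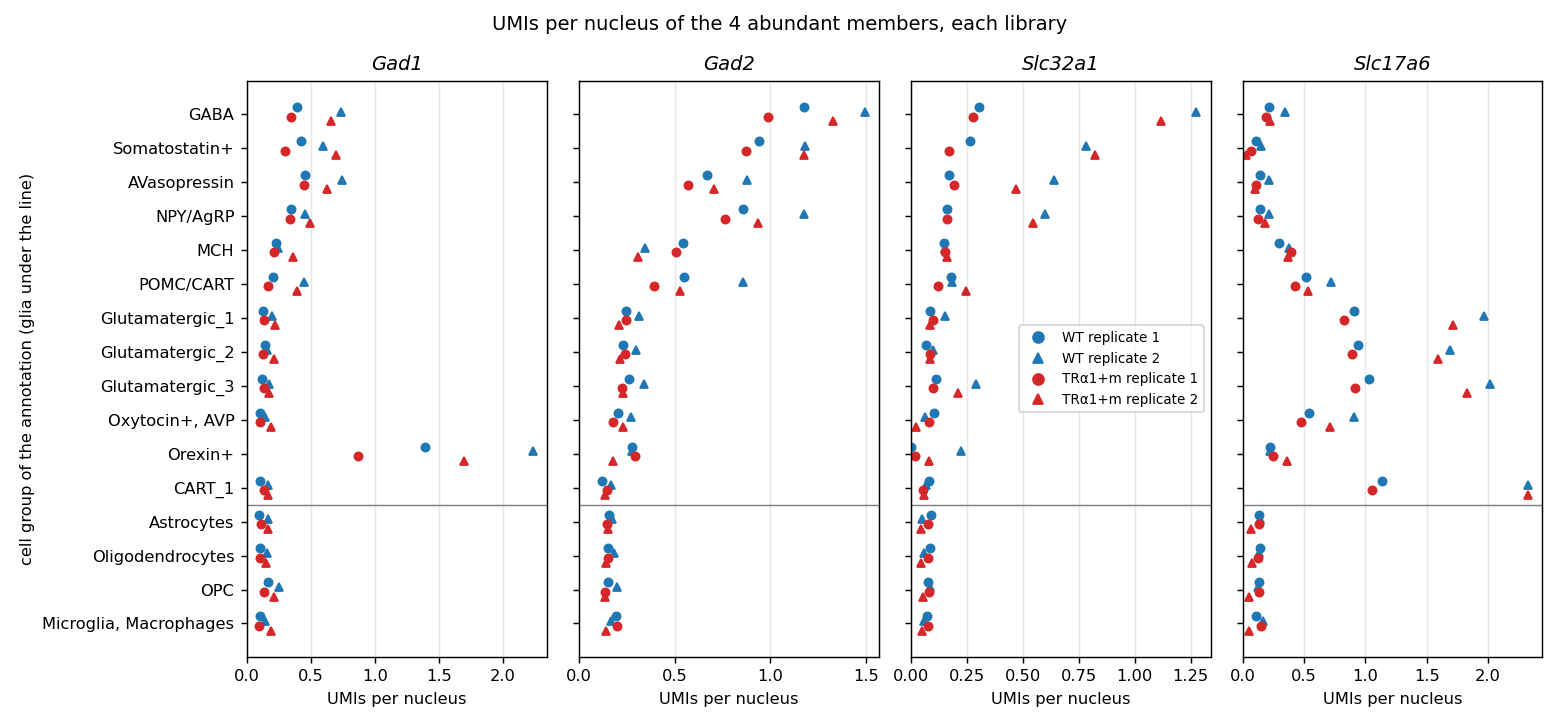
UMIs per nucleus (horizontal axis, from 0) of Gad1, Gad2, Slc32a1 and Slc17a6 in 12 neuronal sub-clusters and, under the line, 4 glial clusters; each point is a library, blue for WT and red for TRα1+m, circles for repeat 1 and triangles for repeat 2. Glial points lie at or under 0.254, Gad2 peaks in GABA Neurons at 0.990 to 1.5, Slc17a6 in CART Neurons_1, and Gad1 in the group annotated Orexin+ at 0.869 to 2.24.

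Glia gave the background of these measurements. Gad2 averaged 0.158 UMIs per astrocyte nucleus, 0.157 per oligodendrocyte, 0.157 per OPC and 0.175 per nucleus of microglia with macrophages, and Slc17a6 averaged 0.115, 0.120, 0.110 and 0.119. For both genes these 4 cell types thus held nearly the same number of molecules per nucleus. Gad1 read 0.193 in OPCs, whose nuclei were deeper (median 2221 to 2984 UMIs), and 0.129 to 0.134 in the other 3, but in CPM OPCs (70.3) were under oligodendrocytes (73.8) and microglia with macrophages (81.4). The ratio of Gad1 to Gad2 UMIs was alike in astrocytes and oligodendrocytes but not in all 4 types. In WT repeats 1 and 2 and TRα1+m repeats 1 and 2 it was 0.618, 0.962, 0.733 and 1.06 in astrocytes. In the same order, oligodendrocytes gave 0.683, 0.867, 0.668 and 1.06, and microglia with macrophages 0.544, 0.823, 0.475 and 1.35. In OPCs the ratio was 1.10, 1.26, 1.01 and 1.55, the highest of the 4 types in every library. In GABA Neurons it was 0.331, 0.491, 0.349 and 0.495, below glia in every library. Where the glial molecules came from was not tested.

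Detection by nucleus has to be read against that background. Gad2 was found in 57.8 and 64.7% of GABA Neurons in WT and 53.6 and 62.3% in TRα1+m (median 3564 to 5117 UMIs per nucleus), and in 13.7, 16.1, 13.9 and 13% of oligodendrocytes (median 1493 to 1811.5). After each nucleus was thinned to 1000 UMIs, which left out 635 nuclei with fewer, at least 1 of the 3 GABA genes was found in 39.0% of GABA Neurons, 19.1% of oligodendrocytes and 8.91% of Glutamatergic Neurons_1. A glutamate transporter was found in 22.0% of Glutamatergic Neurons_1, 6.72% of oligodendrocytes and 5.07% of GABA Neurons. The mean share of the opposite transmitter in both neuronal groups lay under the oligodendrocyte share and was not read as expression. In TRα1+m repeat 2, however, a glutamate transporter was found in 4.41% of GABA Neurons and 3.85% of oligodendrocytes. Thinning removes a larger part of the molecules of the deeper neuronal nuclei, so these shares cannot decide whether the opposite transmitter was expressed. Per nucleus and without correction for depth, Gad2 in Glutamatergic Neurons_1 was 1.45 to 1.73 times its oligodendrocyte level over libraries. Slc17a6 in GABA Neurons was 1.46 to 2.88 times its oligodendrocyte level.

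The group annotated Orexin+ Neurons stood apart from the pattern above. It held 227 nuclei (36 and 80 in WT, 61 and 50 in TRα1+m). Before thinning, 69.4 and 83.8% of them in WT and 47.5 and 74.0% in TRα1+m had a Gad1 UMI. These nuclei were deep (median 6451 to 7921 UMIs). After the same thinning as above, any GABA gene was found in 14.1% (8.33 to 17.5%), under the 19.1% of oligodendrocytes. Thinning removed a larger part of the molecules of these deep nuclei, so the lower share does not show that GABA genes were absent. Gad1 alone was found in 12.4% of thinned nuclei (5.56 to 16%), against 6.27% of astrocytes (4.75 to 7.63%). The lowest library of the group thus lay within the astrocyte range. Astrocytes are a low reference, with less Gad1 in CPM than oligodendrocytes in every library (49.5 to 76.3 against 63.2 to 85.1). The thinned share of oligodendrocytes with Gad1 alone is not reported here. Gad1 gave 50 and 179 UMIs in WT and 53 and 85 in TRα1+m, whereas Gad2 gave only 10, 22, 18 and 9. Gad1 thus exceeded Gad2 2.94 to 8.14 times in the 3 libraries with at least 10 Gad2 UMIs, against 0.331 to 0.495 times in GABA Neurons. Relative to oligodendrocytes Gad1 was 11.8 times as high per nucleus (8.56 to 14.1), and Gad2 1.63 times, without correction for depth. In CPM Gad1 stayed above oligodendrocytes in every library (123 to 254 against 63.2 to 85.1). Gad2 lay under oligodendrocytes in CPM (20.8 to 41.9 against 80.4 to 96.1). The mean of Slc32a1 did too (9.29 CPM against 26.1 to 53.2). Slc32a1 varied between libraries, with 0 and 18 UMIs in WT and 1 and 4 in TRα1+m, from 0 to 3.70 times the oligodendrocyte level per nucleus.

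The name of that group did not match its genes. Hcrt, the orexin precursor, measured 69.6 ± 30.6 CPM there and 827 ± 505 CPM in Glutamatergic Neurons_2. The leading gene by fold over other neurons was Hdc, which encodes the enzyme that makes histamine, at 959 against 5.11 CPM. Slc18a2, the vesicular monoamine transporter, measured 512 ± 190 CPM. The group is therefore called here by its annotation only, and its Gad1 is described together with Hdc and Slc18a2. By contrast, Agrp (856 CPM in NPY/AgRP), Sst (776 CPM in Somatostatin+), Oxt (13963 CPM in Oxytocin+, AVP) and Pmch (9491 CPM in MCH Neurons) were present in the groups named for them. Their levels in other groups are not reported here. MCH Neurons also held the endothelial, mural and astrocyte marker RNA given above, so Pmch alone does not make that group uniform.

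Within neurons as a whole, the genes of a transmitter met in the same nuclei more often than their separate frequencies gave. In Neurons_1 nuclei thinned to 1000 UMIs, Gad2 and Slc32a1 were found together in 531 nuclei where the product of their shares gave 323, a ratio of 1.64 (1.37 to 1.79 over libraries). Gad1 and Gad2 met in 475 against 325 nuclei (1.46, range 1.35 to 1.63). Gad1 and Slc32a1 met in 271 against 184 nuclei (1.47, range 1.02 to 1.72). Gad2 and Slc17a6 met in 303 where 587 were given by their shares, a ratio of 0.516 (0.420 to 0.602). All 4 libraries lay on the same side of 1 for each of these pairs.

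Inside GABA Neurons the pooled ratios lay nearer to 1 than in Neurons_1. Those for Gad1 with Gad2, Gad1 with Slc32a1 and Gad2 with Slc32a1 were 1.10, 1.07 and 1.07. Over libraries they ran from 1.04 to 1.23, 0.609 to 1.25 and 0.955 to 1.28. Both pairs with Slc32a1 lay under 1 in WT repeat 1. The pooled ratios with Slc17a6 stayed under 1, at 0.805 for Gad1, 0.696 for Gad2 and 0.643 for Slc32a1, although the Slc32a1 pair read 1.01 in WT repeat 1. In astrocytes the 6 pairs ranged from 0.694 to 1.40, with pairs of either kind on both sides of 1. In oligodendrocytes they ranged from 0.793 to 1.30, and the pooled ratios of the 3 pairs with Slc17a6 lay above 1, unlike in Neurons_1. Over libraries these pairs ran from 1.04 to 1.76 for Gad1, 0.953 to 1.32 for Gad2 and 0.482 to 2.33 for Slc32a1. Gad1 with Slc32a1 lay above 1 in every library of both glial types. Its pooled ratio was 1.40 in astrocytes and 1.30 in oligodendrocytes, against 1.47 in Neurons_1. In astrocytes Gad1 with Slc17a6 lay under 1 in every library (0.423 to 0.794), as in Neurons_1.

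**Figure D2:**
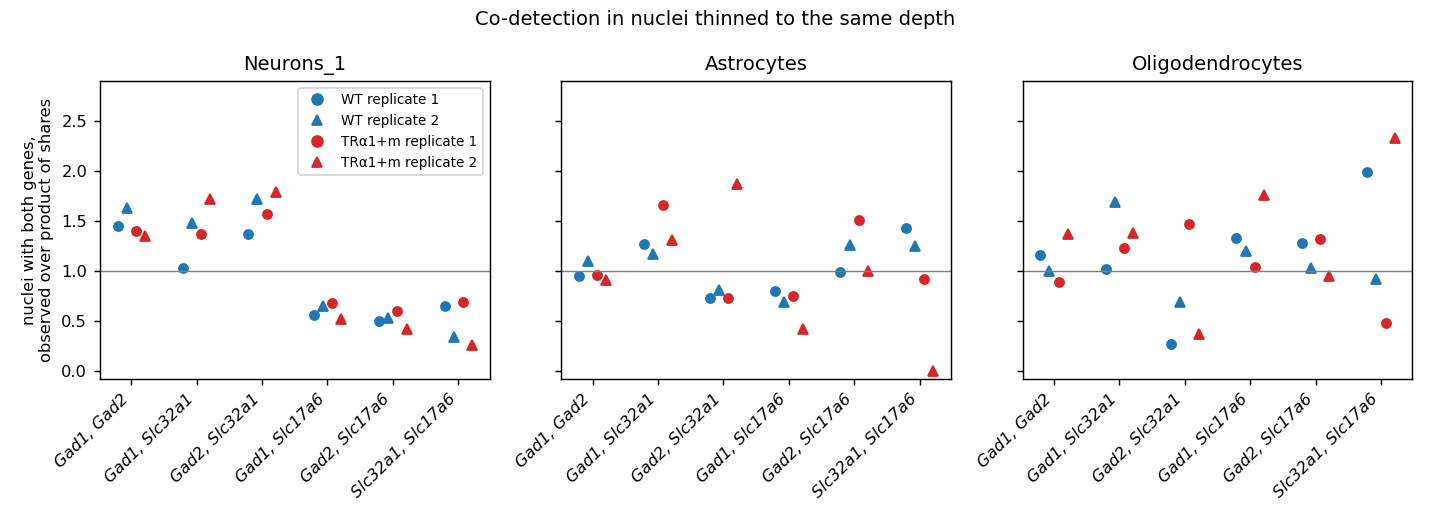
Nuclei with both genes of a pair, observed over the product of the shares (vertical axis), for 6 gene pairs in Neurons_1, astrocytes and oligodendrocytes thinned to 1000 UMIs; each point is a library, colours and symbols for genotype and repeat. In Neurons_1 the GABA pairs lie above 1 and the pairs with Slc17a6 below 1 in every library. Glial points lie on both sides of 1, but Gad1 with Slc32a1 is above 1 in every glial library. Gad1 with Slc17a6 is below 1 in every astrocyte library.

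Over all of Neurons_1, thinned in the same way, 22.3% of nuclei had only GABA genes, 11.5% only a glutamate transporter, 1.69% both and 64.5% neither (means of n = 4 libraries). Oligodendrocytes gave 17.5, 5.19, 1.53 and 75.7%. For nuclei with both, the order of the cell types turned between repeats. In repeat 1 Neurons_1 lay under oligodendrocytes (1.40 against 2.36% in WT and 1.43 against 1.60% in TRα1+m), and in repeat 2 above them (2.25 against 1.37% and 1.71 against 0.785%). This count therefore gave no steady excess of such nuclei over oligodendrocytes. Neurons_1 nuclei were deeper (median 3797 to 5227 UMIs), so thinning removed a larger part of their molecules. The count cannot decide whether Neurons_1 held an excess of such nuclei over background.

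Genes with the most similar pattern were ranked by Pearson's r of log2(mean CPM + 1) over 12 neuronal sub-clusters, among 10277 genes with a mean of at least 10 CPM. The groups share libraries, and their depth and size differ, so r is only a description. Gad2 was most like Slc32a1 (0.97), Gm14204 (0.96), Dstyk (0.91), Nrxn3 (0.87) and Ndufs4 (0.87). Slc32a1 was most like Gm14204 (0.98), Gad2, Dstyk (0.86), Nrxn3 (0.85) and Sfpq (0.84). Gm14204 lies on the minus strand at chr2:158595472-158610723. Its start and that of Slc32a1 on the plus strand are separated by 43 bases, so the genes do not overlap. Gad1 was most like Slc30a4, Nudt13, Spin1 and Paip1 (each 0.86) and Mex3c (0.85), and less like Gad2 (0.61) or Slc32a1 (0.53). Slc17a6 was most like Lrrn1 (0.89), Ltbp1 (0.88), P3h2, Tmem25 and Chst8 (each 0.87), and ran against Gad1 (−0.83), Gad2 (−0.64) and Slc32a1 (−0.56).

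The rare transporters Slc17a7 and Slc17a8 were found in few places. Slc17a8 was highest in tanycytes, the glial cells that line the third ventricle, at 10.7 and 24.6 CPM in WT and 5.01 and 3.38 CPM in TRα1+m, from 10, 25, 5 and 2 UMIs. Among neurons it was highest in Glutamatergic Neurons_2, at 4.92 and 10.5 CPM in WT and 3.46 and 6.41 CPM in TRα1+m, and higher there than in the next group, Glutamatergic Neurons_3 (3.17 ± 0.821 CPM), in all 4 libraries. Oligodendrocytes held 5, 2, 3 and 0 UMIs in all. These values rest on so few molecules that counting error alone is wide.

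Slc17a7 came mainly from a single library. In Glutamatergic Neurons_3 it gave 3 and 0 UMIs in WT repeats 1 and 2 and 1 and 91 in TRα1+m repeats 1 and 2. Of those 91 UMIs, 84 were in 21 of the 573 nuclei, and a single nucleus held up to 9. No Slc17a7 UMI was seen in the NPY/AgRP, Orexin+, Oxytocin+, AVP or Somatostatin+ groups, for which the exact Poisson 95% interval of a library, which covers counting error only, allows up to 4.25 to 13.1 CPM. Over all 573 nuclei of that library, Neurod6, Tbr1 and Emx1, other genes of cortical excitatory neurons, gave 8, 2 and 1 UMIs. What the 21 nuclei carried besides Slc17a7 was not examined.

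**Figure D3:**
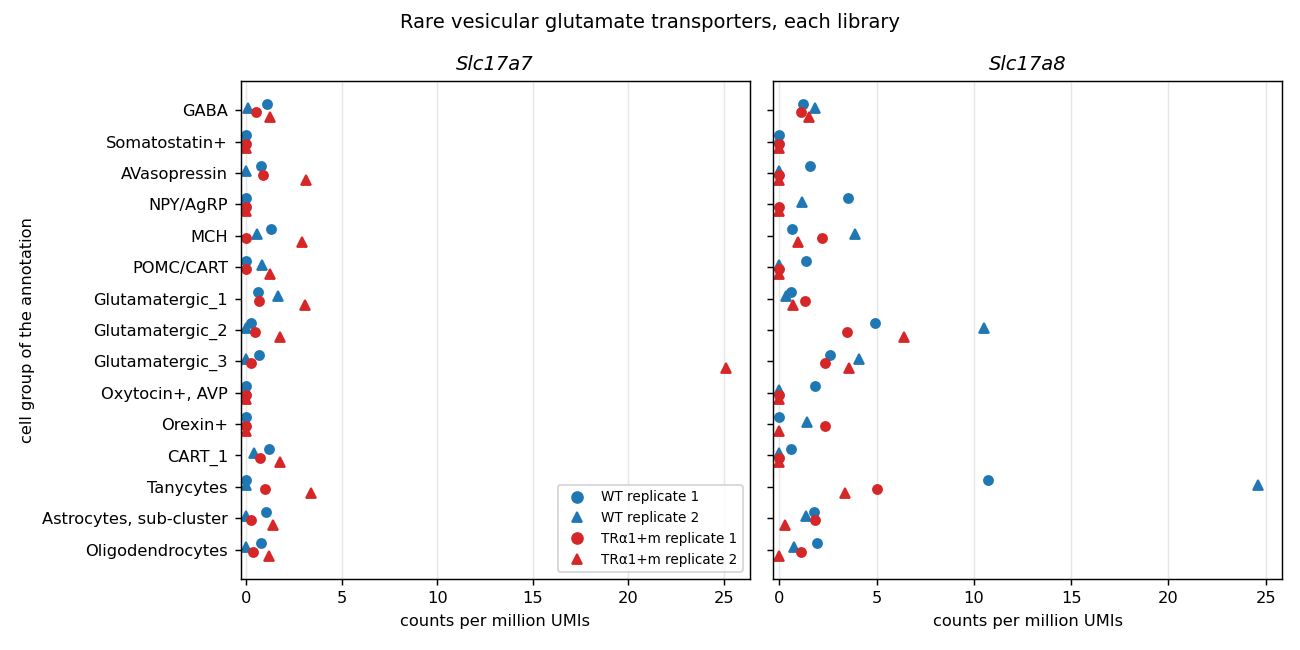
Slc17a7 and Slc17a8 in CPM (horizontal axis) in 12 neuronal sub-clusters, tanycytes, the astrocyte sub-cluster and oligodendrocytes; each point is a library, blue for WT, red for TRα1+m, circles for repeat 1 and triangles for repeat 2. A single TRα1+m repeat 2 point at 25.1 CPM sets Slc17a7 in Glutamatergic Neurons_3, and Slc17a8 is highest in tanycytes and Glutamatergic Neurons_2.

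The genotype comparison asked whether the mutant receptor changed these genes in any cell group. In Neurons_1, Gad1 measured 60.9 and 79.6 CPM in WT repeats 1 and 2 and 59.4 and 84.6 CPM in TRα1+m repeats 1 and 2. Gad2 measured 158 and 146 CPM in WT and 147 and 141 CPM in TRα1+m. Slc17a6 measured 121 and 188 CPM in WT and 116 and 173 CPM in TRα1+m. The genotypes overlapped for all 3 genes, and the libraries of Gad1 and Slc17a6 split by repeat instead. Fitted log2 fold changes of TRα1+m over WT were −0.03 for Gad1 (95% interval −0.60 to 0.54), −0.14 for Gad2 (−0.44 to 0.16), −0.06 for Slc32a1 (−1.55 to 1.44) and −0.17 for Slc17a6 (−0.88 to 0.54).

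In 19 cell groups, 82 tests of the 6 genes passed the filter on low counts, and edgeR's quasi-likelihood test called 0 of them at an adjusted p under 0.05 (lowest adjusted p 0.999). DESeq2 also called 0, and 3 had an unadjusted p under 0.05 in edgeR. Over all genes the share called was 0.103% in oligodendrocytes, 0.043% in the Orexin+ group, 0.0119% in NPY/AgRP Neurons, 0.00865% in CART Neurons_1 and 0% in the other 15. Gad1 and Gad2 passed the filter in all 19 groups, Slc32a1 in 17, Slc17a6 in 18, Slc17a8 in 6 and Slc17a7 in 3. The median 95% interval of the 4 abundant genes was 1.32 log2 units wide, so modest changes could go undetected. This fit held no term for the repeat, so its intervals contain the difference between repeats. With the repeat as a block, the estimates in Neurons_1 were −0.04 for Gad1, −0.14 for Gad2 and −0.05 for Slc32a1. The intervals of the blocked fit are not reported here.

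The estimates were small for most tests. Gad1 ran from −0.49 to 0.33 with a median of 0.08 and was positive in 12 of 19 groups. Gad2 was negative in 16 of 19 (median −0.14, range −0.54 to 0.07), Slc32a1 in 13 of 17 (median −0.09) and Slc17a6 in 16 of 18 (median −0.23). Cell groups share their libraries, so these signs are not independent and no group passed the test. The 3 lowest p-values belonged to Gad2 in POMC/CART Neurons, with 141 and 163 CPM in WT and 103 and 110.3 CPM in TRα1+m (log2 fold change −0.54), Slc17a8 in tanycytes (−1.97) and Slc17a6 in AVasopressin Neurons, with 43.5 and 54.0 CPM in WT and 34.3 and 26.5 CPM in TRα1+m (−0.66). The genotypes did not overlap in these 3, but they were picked by their p-values, so this adds no support. How many of all genes do not overlap was not counted. Over all genes, 209 of 9616 in POMC/CART Neurons, 155 of 11217 in tanycytes and 209 of 10442 in AVasopressin Neurons had an unadjusted p under 0.05 in edgeR.

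**Figure D4:**
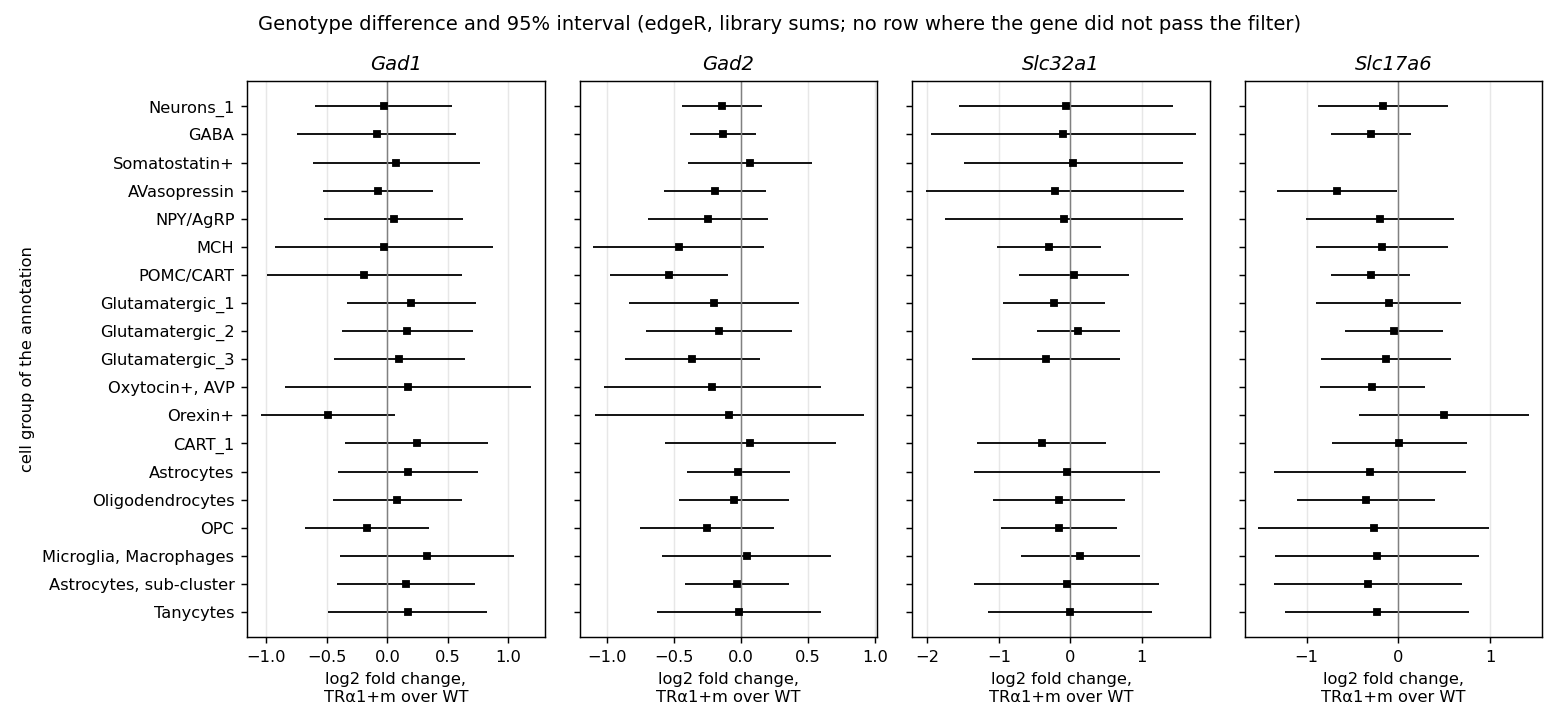
Log2 fold change of TRα1+m over WT with its 95% interval (horizontal axis, edgeR on library sums, n = 2 libraries per genotype) for Gad1, Gad2, Slc32a1 and Slc17a6 in Neurons_1, 12 neuronal sub-clusters, 4 glial clusters and 2 astrocyte sub-clusters; a gene that did not pass the filter has no point. Nearly all intervals cross 0 and Slc32a1 has the widest ones in GABAergic groups. The fit holds no term for the repeat.

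The effect of genotype was also compared between GABA Neurons and the glutamatergic groups as an interaction in edgeR. The difference of log2 fold changes was −0.27 for Gad1 (95% interval −0.82 to 0.27), 0.10 for Gad2 (−0.97 to 1.17), −0.01 for Slc32a1 (−4.06 to 4.03) and −0.17 for Slc17a6 (−1.69 to 1.36). None of the 6 genes passed the test (adjusted p 0.9997 for each), where 1 of 18238 genes (0.00548%) did. Their unadjusted p-values were all above 0.05. The fit held a term for each library but none for a repeat effect that differs between cell groups. Its intervals therefore contain any such difference.

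The balance of transmitters over Neurons_1 did not differ between genotypes by more than the spread between repeats. A GABA gene was found in 22.3 and 25.7% of thinned nuclei in WT and 21.5 and 26.6% in TRα1+m, a difference of 0.0815 percentage points (two-sided exact permutation test, p = 1, n = 2 per group). A glutamate transporter was found in 11.3 and 16.4% in WT and 10.1 and 14.9% in TRα1+m, a difference of −1.34 points (exact permutation p = 0.667). Both were found in 1.40 and 2.25% in WT and 1.43 and 1.71% in TRα1+m (exact permutation p = 1). In each case the repeats of a genotype lay further apart than the genotype means. The permutation test does not use the pairing by repeat. Within a repeat, the share with a glutamate transporter was lower in TRα1+m both times. The share with a GABA gene and the share with both moved in opposite directions in the repeats.

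The 40 other genes of GABA and glutamate metabolism and transport gave 449 tests in these cell groups, and edgeR called 0 of them between genotypes, as did DESeq2, with 7 at an unadjusted p under 0.05. Of these 7, 3 were in oligodendrocytes, where 672 of all 12630 genes reached that level in edgeR. Another 2 were in Oxytocin+, AVP Neurons, where 256 of 7889 genes did. The levels of some differed between neurons and glia. Slc1a2, the main glial glutamate transporter, reached 2783 ± 447 CPM in astrocytes. Glul, which makes glutamine, stood at 283 ± 10.8 CPM in astrocytes, 258 ± 114 CPM in oligodendrocytes and 64.4 CPM in Neurons_1, and Abat, which breaks down GABA, at 298 and 143 CPM in astrocytes and Neurons_1. Slc6a5, which takes up glycine in glycinergic neurons, stayed at or under 0.52 CPM in every group examined.

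With the experimental repeat as a block, the fit still called 0 of the 6 genes but 6 pathway tests, where 0.743% of all tests were called, and 4.35% in oligodendrocytes, 1.74% in the astrocyte sub-cluster and 0.896% in MCH Neurons. In oligodendrocytes Glul was lower in TRα1+m (307 and 386 CPM in WT repeats 1 and 2, 217 and 123 CPM in TRα1+m, log2 fold change −1.0, adjusted p 9.30e-05 in edgeR). Slc1a3, a glial glutamate transporter, was higher there (247, 207, 359 and 267 CPM, log2 fold change 0.52), and Sp8, a transcription factor, rested on at most 4.43 CPM. The other calls were Slc38a3 (−0.60) and Slc38a1 (0.44), glutamine transporters, in the astrocyte sub-cluster and Slc6a11 (−0.68), a GABA transporter, in MCH Neurons. Which nuclei of MCH Neurons carried Slc6a11 was not examined, and that group also held vascular and astrocyte marker RNA. The block leaves 1 residual degree of freedom per gene.

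The experimental repeats were compared with genotype in the same fit. Slc32a1 in Neurons_1 measured 43.3 and 44.0 CPM in the WT and TRα1+m libraries of repeat 1, and 108.4 and 108.9 CPM in those of repeat 2. In GABA Neurons the values were 71.4 and 71.1 CPM against 230.5 and 223 CPM, a log2 fold change of 1.63 (SE 0.08, adjusted p 1.2e-23, edgeR), where 29.7% of all genes were called. Repeats did not overlap and the genotypes within a repeat nearly coincided. Gad2 in the same nuclei hardly moved (275 and 252 CPM in repeat 1, 271 and 265 CPM in repeat 2, log2 fold change −0.02), so the ratio of Slc32a1 to Gad2 UMIs went from 0.259 and 0.282 to 0.851 and 0.843.

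Glia moved the other way. In astrocytes Slc32a1 measured 44.9 and 42.2 CPM in repeat 1 and 21.5 and 21.6 CPM in repeat 2, and in oligodendrocytes 53.2 and 46.6 against 31.3 and 26.1 CPM. The fitted changes were −1.05 and −0.81. Not all neurons rose. The fitted change of Slc32a1 was 0.89 in Glutamatergic Neurons_3, but −0.08 and −0.06 in Glutamatergic Neurons_1 and 2. The difference in the repeat effect between Neurons_1 and astrocytes was 2.27 log2 units (SE 0.13, adjusted p 5.2e-08, edgeR interaction), and that between Neurons_1 and oligodendrocytes 2.05 (SE 0.17, adjusted p 7.6e-06). Over all genes 5.81% and 2.45% passed these tests. Slc32a1 was thus about as high in CPM in glia as in Neurons_1 in repeat 1, and well under it in repeat 2.

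Slc17a6 behaved in the same sense but less so. In Neurons_1 it rose from 121 and 116 CPM to 188 and 173 CPM (log2 fold change 0.57), and in Glutamatergic Neurons_1, 2 and 3, where 24.2, 21.8 and 12.2% of all genes were called, by 0.66, 0.45 and 0.62. In astrocytes and oligodendrocytes it fell by 0.67 and 0.62 on the log2 scale, in astrocytes mainly through TRα1+m repeat 2 (65.5 and 68.9 CPM in repeat 1, 58.5 and 30.0 CPM in repeat 2). The interaction was 1.17 against astrocytes (adjusted p 0.0099) and 1.15 against oligodendrocytes (adjusted p 7.4e-04, edgeR). The first missed the threshold without WT repeat 1 (1.30, adjusted p 0.0533) and the second without TRα1+m repeat 1 (1.19, adjusted p 0.0621, edgeR). For Gad1 and Gad2 the interactions lay within 0.07 of 0 and did not pass.

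Over the 5 main clusters 10 member tests were called between repeats. They were 4 in Neurons_1 (Slc32a1, Slc17a6, Gad1 and Slc17a8), 3 in astrocytes (Slc32a1, Slc17a6 and Gad1), 2 in oligodendrocytes (Slc32a1 and Slc17a6) and Slc17a6 in OPCs, with none in microglia and macrophages. Over all genes the share called was 25.2% for Neurons_1, 20.6% for astrocytes, 12.4% for oligodendrocytes, 11.4% for OPCs and 6.27% for microglia with macrophages, so a repeat difference as such was common. Gad1 rose in neurons and astrocytes alike (0.41 and 0.43). Of the 40 pathway genes, 11 rose and 4 fell among 38 tested in Neurons_1, and 7 rose and 1 fell among 31 in astrocytes. Over all genes 13.2% rose and 12% fell in Neurons_1, and 9.64% rose and 11% fell in astrocytes.

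Gm14204, the minus-strand neighbour that tracked Slc32a1 over cell groups, did not follow it over repeats in GABA Neurons. There it measured 38.3 and 38.3 CPM in WT repeats 1 and 2 and 38.4 and 37.6 CPM in TRα1+m repeats 1 and 2 (log2 fold change −0.06, adjusted p 0.727, edgeR). In oligodendrocytes Gm14204 changed by −1.02 (adjusted p 0.0655, edgeR) and Slc32a1 by −0.81. In Glutamatergic Neurons_2, where 21.8% of all genes were called, Gm14204 changed by −1.33 (adjusted p 0.0142, edgeR) and Slc32a1 by −0.06. Gm14204 changed by −0.32 in astrocytes, −0.66 in Glutamatergic Neurons_1 and −0.004 in Glutamatergic Neurons_3. Depth differed between repeats as well, with a median of 3989.5 and 3797 UMIs per Neurons_1 nucleus in repeat 1 and 5227 and 4833.5 in repeat 2. Its part in the repeat difference was not tested. Each repeat holds a library of both genotypes, so the mean of each genotype contains each repeat once.

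**Figure D5:**
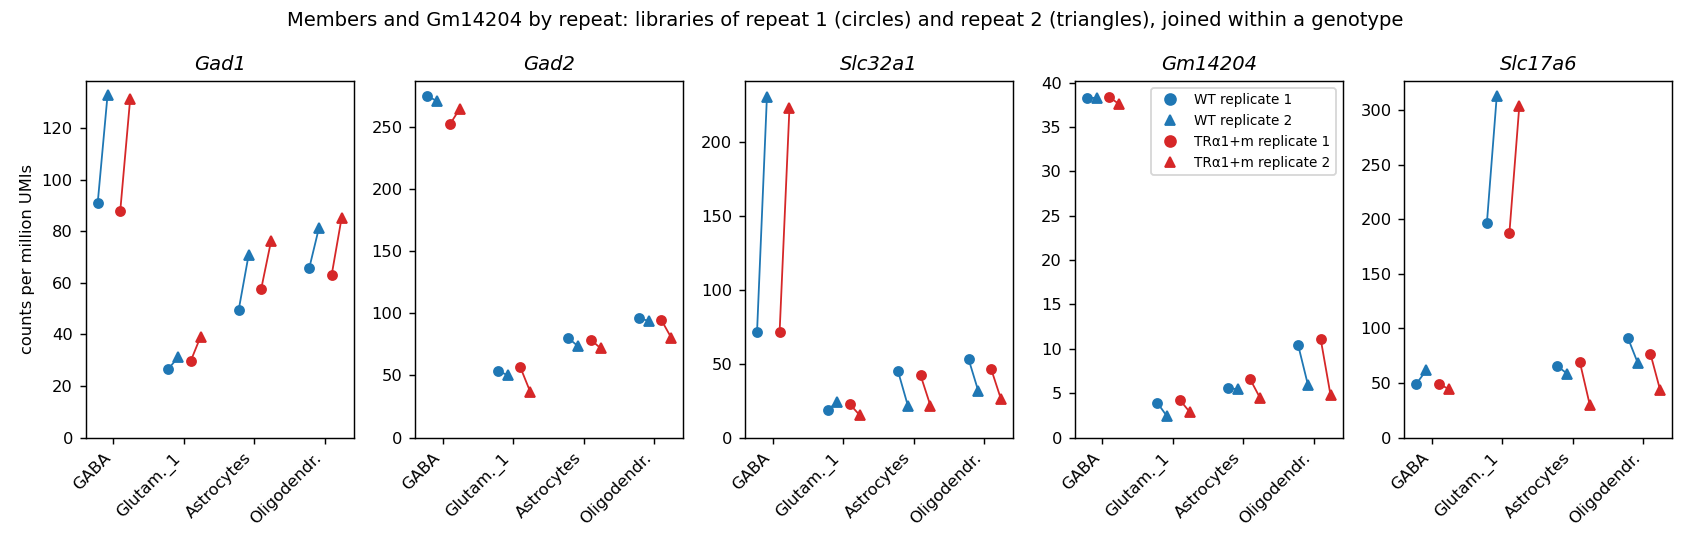
CPM (vertical axis, from 0) of Gad1, Gad2, Slc32a1, Gm14204 and Slc17a6 in GABA Neurons, Glutamatergic Neurons_1, astrocytes and oligodendrocytes; circles are libraries of repeat 1 and triangles of repeat 2, joined within a genotype (blue WT, red TRα1+m). Slc32a1 climbs in GABA Neurons from about 71 to over 220 CPM and drops in both glial types, while Gad2 and Gm14204 stay nearly level in GABA Neurons.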

How the data were processed

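The authors aligned reads and counted UMIs per gene with Cell Ranger 5.0.1, introns included, on mm10 and annotated clusters in Seurat; the deposited matrices hold whole-number counts without normalisation. The authors' limits on UMIs, genes, mitochondrial share and doublet score were not repeated; kept nuclei held at least 901 UMIs and 701 genes, and their clusters and sub-clusters were used as deposited. Counts were summed per library and cell group with at least 10 nuclei in each library.

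Library sums were tested with edgeR 4.0.16 (filterByExpr, TMM, robust quasi-likelihood F-test, Benjamini-Hochberg adjustment over all genes of a cell group) in R 4.3.3. DESeq2 1.42.0, RLE factors, bias-adjusted deviances, no filter, the repeat as a block and each library left out were alternatives. The edgeR step was tested on simulated data with known fold changes. Nuclei were thinned in Python 3.11.15 with numpy 2.4.6, pandas 2.3.3 and scipy 1.17.1.

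The methods place a WT and a TRα1+m library in each repeat, and repeat differences correlated between genotypes (r 0.31 to 0.67 over 19 groups), so repeats pair the libraries. Named genes were the 6 members, pathway genes that passed in any group, 6 set pathway genes and the 5 most similar genes of each abundant member. Values of some of these genes are not reported here. Members and lists were chosen with earlier results of these data known. Tests of the repeat in sub-clusters, of its difference between neurons and glia, and of Gm14204 were added after the data were seen, as were Hdc, Slc18a2, Hcrt and the genes of the label checks. Coordinates are those of GENCODE vM21.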

Additional observations from a re-analysis of the deposited data

Results flagged for a closer look

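The change of Slc32a1 between experimental repeats differed between cell types, by 2.27 log2 units between Neurons_1 and astrocytes and by 2.05 between Neurons_1 and oligodendrocytes. Within neurons it was 1.63 in GABA Neurons and 0.89 in Glutamatergic Neurons_3, but −0.08 and −0.06 in Glutamatergic Neurons_1 and 2. For Slc17a6 the differences were 1.17 and 1.15. These 4 passed edgeR's interaction test, but those of Slc17a6 missed the threshold without WT repeat 1 (astrocytes, 1.30, adjusted p 0.0533) and without TRα1+m repeat 1 (oligodendrocytes, 1.19, adjusted p 0.0621). The cause was not tested.

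In Neurons_2, which the comparisons leave out, the 852 nuclei of TRα1+m repeat 2 held 2.34 Gad1 UMIs per nucleus, above the 0.441 of Neurons_1 in that library, with a Gad1 UMI in 76.2% of nuclei. Gad2 (0.947), Slc32a1 (0.812) and Slc17a6 (0.0704) UMIs per nucleus complete that profile, and the leading genes by fold were Cpa6, Shisa8, Frmd7, Lgr6 and Meis2. The other libraries gave 5, 1 and 6 nuclei, so there is no replicate.

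Barcodes without an annotation held 0.382 Gad2 UMIs each as a mean of libraries (0.341 and 0.423 in WT, 0.340 and 0.422 in TRα1+m), above every glial cluster.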

How the results depend on the processing

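The count of 0 members called between genotypes was the same with DESeq2, RLE factors, bias-adjusted deviances, no filter and the replicate block; it ranged from 0 to 1 with a library left out, the single call being Slc17a7 in Glutamatergic Neurons_3 without TRα1+m repeat 1 (log2 fold change 6.06, adjusted p 0.0215, edgeR), where the lone mutant library is assumed to vary like the WT group. Pathway calls rose from 0 to 6 with the replicate block, the pairing being that of the repeats, and ranged from 0 to 1 with a library left out, with Glul in oligodendrocytes called without TRα1+m repeat 1 and Slc1a3 in the Orexin+ group without TRα1+m repeat 2. The pairing changed no other call on the 6 genes. Over all genes 18 tests were called, 1712 with the replicate block, 80 by DESeq2 and 284 without the filter. The difference in the share of GABA-positive nuclei turned to −0.782 points without thinning, and that with both transmitters to 0.00528 points at 2 UMIs. With a library left out the share differences also changed sign, ranging from −2.46 to 2.62 points for GABA genes, −3.90 to 1.23 for glutamate transporters and −0.681 to 0.170 for both. Leaving out a library also leaves the repeats unbalanced between genotypes. Single genotype estimates were followed with a library left out only for a selected set of genes and cell groups, not for all 82 member tests. In that set 6 estimates changed sign. In Neurons_1 they ranged from −0.28 to 0.18 for Gad1, −0.83 to 0.73 for Slc32a1 and −0.46 to 0.16 for Slc17a6. In GABA Neurons they ranged from −0.38 to 0.18 for Gad1 and −1.11 to 0.95 for Slc32a1. In Glutamatergic Neurons_1 Slc17a6 ranged from −0.48 to 0.25. These 6 were positive without TRα1+m repeat 1 and without WT repeat 2. The Slc17a6 interaction missed the threshold against astrocytes without WT repeat 1 (1.30, adjusted p 0.0533) and against oligodendrocytes without TRα1+m repeat 1 (1.19, adjusted p 0.0621). The 10 calls between repeats stayed 10 with RLE factors and without the filter, and could not be fitted with a library left out. Slc17a7 and Slc17a8 rest on few UMIs in most cell groups.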
